A study of Mus musculus with 6 samples.

Results

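Innate immune sensing was followed through 10 transcripts in purified mouse platelets: the adaptor Mavs, the sensors Ddx58 (RIG-I), Ifih1 (MDA5), Tlr7 and Nlrp6, the transcription factors Irf3 and Irf7, the feedback regulator Trafd1, and the interferon-induced genes Samd9l and Ifit1. They were chosen from their values in these libraries, for changes in opposite directions in the mutant, so the differences between genotypes given for them below are descriptions and carry no test. Of the 10 genes, 9 had a row among the 9822 genes of the count tables, and Tlr7 is not analysed here. Every listed gene lay above a low level in at least 3 libraries.

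The mutant platelets carried 1 copy of the C587R allele (genotype Nxf1+/C587R) of Nxf1, whose product exports mRNA from the nucleus, and the control platelets came from wild type littermates, whose libraries also belong to another series. Both genotypes were males of the BalB/c background, and nothing else distinguished the groups in the labels. PolyA RNA was sequenced from 3 mutant and 3 wild type libraries, each from a pool of suspensions that were more than 98% positive for the platelet surface protein CD41 by flow cytometry. Batch numbers 1 to 3 pair a mutant with a wild type pool, and the series' design states that pools were prepared on 3 days. The sources used here do not say how many animals entered a pool, and the labels restrict the mutation to no tissue.

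RIG-I and MDA5 are cytosolic helicases that bind viral RNA and engage MAVS on the outer mitochondrial membrane. MAVS assembles kinases that activate IRF3, IRF7 and NF-kappaB, which switch on type I interferon genes. Interferon then induces effectors such as IFIT1, which binds foreign RNA 5′ ends, and SAMD9L, an antiviral and growth-restricting protein. TLR7 senses single-stranded RNA in endosomes, NLRP6 is a cytosolic NOD-like receptor best known in the intestinal epithelium, and TRAFD1 is a zinc finger protein induced by interferon that dampens Toll-like receptor and RIG-I signalling. Platelets have no nucleus, so their mRNA was made in the megakaryocyte or taken up later.

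The promoter windows of the genes are shown because interferon-induced genes share a recognisable element, which the choice of genes did not use. RefSeq windows (GRCm38.p6, the assembly of mm10, from a C57BL/6J reference and not from BalB/c mice) span 250 bases before to 50 bases after the annotated start. They were searched on both strands for the core of the interferon-stimulated response element, GAAANNGAAA or its reverse complement TTTCNNTTTC. Capitals mark each match. Mavs and Nlrp6, which differed in opposite directions, are shown beside the 3 windows that held a match.
Mavs (chr2:131233813-131234112, plus strand): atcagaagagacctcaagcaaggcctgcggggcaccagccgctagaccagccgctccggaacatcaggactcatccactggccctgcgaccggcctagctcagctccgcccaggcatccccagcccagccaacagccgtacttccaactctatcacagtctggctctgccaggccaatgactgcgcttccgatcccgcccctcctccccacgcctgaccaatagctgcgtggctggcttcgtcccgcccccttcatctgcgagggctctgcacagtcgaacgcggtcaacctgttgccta
Nlrp6 (chr7:140920652-140920951, plus strand): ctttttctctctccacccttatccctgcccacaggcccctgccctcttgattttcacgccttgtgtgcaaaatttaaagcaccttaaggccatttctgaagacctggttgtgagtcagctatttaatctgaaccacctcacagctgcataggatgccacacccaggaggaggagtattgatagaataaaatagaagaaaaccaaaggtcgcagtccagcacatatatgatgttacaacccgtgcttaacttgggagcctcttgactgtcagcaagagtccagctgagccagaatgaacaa
Ifit1 (chr19:34640639-34640938, plus strand): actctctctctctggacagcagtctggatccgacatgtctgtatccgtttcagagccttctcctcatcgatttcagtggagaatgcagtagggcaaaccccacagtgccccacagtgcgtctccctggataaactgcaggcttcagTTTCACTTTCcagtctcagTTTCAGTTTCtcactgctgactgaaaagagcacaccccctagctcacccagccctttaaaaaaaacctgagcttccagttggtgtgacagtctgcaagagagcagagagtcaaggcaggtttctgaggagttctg
Ddx58 (chr4:40239776-40240075, minus strand): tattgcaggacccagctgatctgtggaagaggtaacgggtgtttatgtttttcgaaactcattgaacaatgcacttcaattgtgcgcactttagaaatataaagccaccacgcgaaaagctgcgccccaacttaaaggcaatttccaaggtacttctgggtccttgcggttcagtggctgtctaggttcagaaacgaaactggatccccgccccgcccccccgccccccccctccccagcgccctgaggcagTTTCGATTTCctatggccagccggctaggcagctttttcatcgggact
Ifih1 (chr2:62646206-62646505, minus strand): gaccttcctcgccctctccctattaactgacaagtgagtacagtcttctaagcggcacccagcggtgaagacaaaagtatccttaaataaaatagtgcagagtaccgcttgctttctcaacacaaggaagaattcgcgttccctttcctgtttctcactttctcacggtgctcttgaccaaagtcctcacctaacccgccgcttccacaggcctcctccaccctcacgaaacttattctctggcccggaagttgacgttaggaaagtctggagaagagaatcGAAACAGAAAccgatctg
The Ifit1 window held 2 matches, beginning 104 and 85 bases before the start site. The single match in Ddx58 began at base 3 after the start site and the single match in Ifih1 at base 33. No match to these letters lay in the windows of Mavs, Nlrp6, Irf3, Irf7, Trafd1 or Samd9l, and Tlr7 had no window. In all, 3 of 9 genes had a match (33.3%), compared with 3.99% of all 27025 genes with a window and 3.90% of the 7606 such genes in the count tables. The 9 genes include interferon-induced genes by their theme, so a share above that of all genes is a description only. Among the interferon-stimulated effectors described further on, 18 of 38 with a window had a match (47.4%). The genes with a match included Ifit1, which was lower in the mutant, and Ddx58 and Ifih1, whose libraries overlapped between genotypes. Of the genes called higher by edgeR, 992 had a window and 26 of these held the element (2.62%), and of the genes called lower, 621 had a window and 23 held it (3.70%). A match is a stretch of letters and not a measured binding site.

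Library totals ranged from 25189231 to 29421549 counts, and normalised levels are given as CPM, counts scaled to library size with TMM factors. Platelet markers, such as the integrin and glycoprotein subunits Itga2b and Gp9, were listed in full (12 of 12) and summed to 44439 to 49093 CPM in mutant, against 34637 to 41972 CPM in wild type libraries. By edgeR 6 of them were called higher and 1 lower, which is 58.3% called, beside 22.1% over all genes. With the batch as a block 9 were higher and 1 lower. The median log2 fold change of these markers was 0.36, beside -0.04 over all genes. Both libraries of batch 1 stood apart in red cell transcripts, with erythroid markers at 31627 CPM in the mutant and 35882 CPM in the wild type pool, while pools of the other batches had 3981 to 4579 CPM in mutant, against 4320 to 4449 CPM in wild type. Differences are therefore also given within batches and without batch 1.

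**Figure D1:**
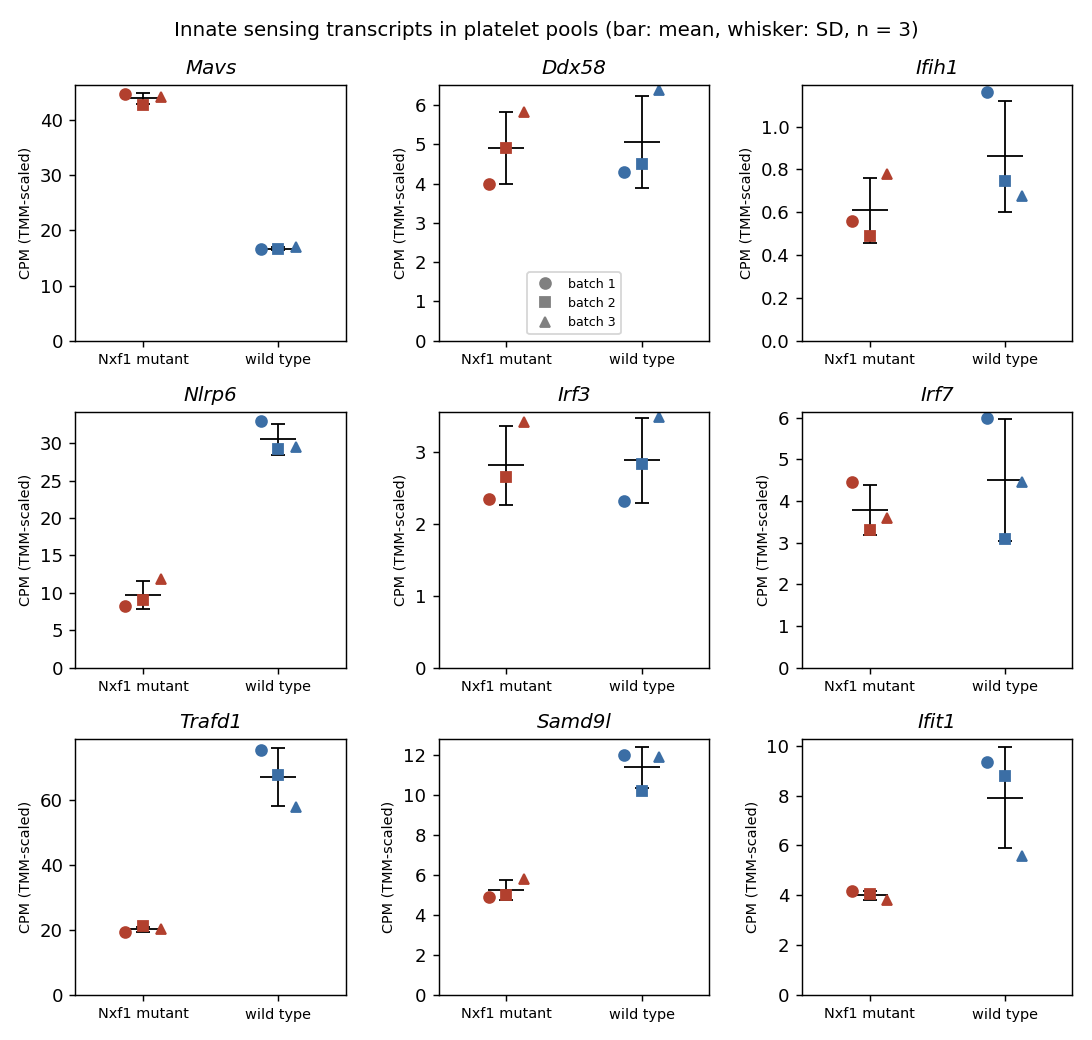
Normalised level (CPM, TMM-scaled, linear axes from 0) of 9 innate sensing transcripts in 3 Nxf1 mutant and 3 wild type platelet pools, with the mean and SD as bar and whisker and the batch as the symbol. Mavs lies at 42.8 to 44.8 CPM in mutant, against 16.6 to 17.0 CPM in wild type pools, while Nlrp6, Trafd1, Samd9l and Ifit1 are lower in all mutant pools and the remaining genes overlap.

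Mavs was the transcript that was higher. It measured 44.8, 42.8 and 44.3 CPM in mutant batches 1, 2 and 3, against 16.6, 16.6 and 17.0 CPM in the wild type batches. The genotypes lay far apart, and within a genotype the pools were nearly level, with means of 44.0 ± 1.03 CPM in mutant, against 16.7 ± 0.241 CPM in wild type pools (SD, n = 3 each). On the log2 scale the fold change came to 1.39 ± 0.11 (SE from the edgeR fit), a 2.63-fold higher level, and 23 of the 9822 genes had a larger one. Within batches 1, 2 and 3 the log2 ratio of mutant to wild type CPM was 1.43, 1.36 and 1.38, and without batch 1 the log2 fold change was 1.33. These values rest on 1048 to 1201 counts in mutant and 400 to 527 counts in wild type libraries. Mavs (Entrez 228607) lies on chromosome 2 from 131234063 to 131248025 (mm10).

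The RNA sensors that feed into MAVS showed no such separation. Ddx58, which encodes RIG-I (Entrez 230073, chromosome 4, 40203777 to 40239825), measured 3.99, 4.90 and 5.82 CPM in mutant, against 4.29, 4.49 and 6.39 CPM in wild type batches 1 to 3. In both genotypes batch 3 was the highest, and the ranges overlapped. Its log2 fold change was -0.05 ± 0.19 (SE). Ifih1, which encodes MDA5 (Entrez 71586, chromosome 2, 62595618 to 62646255), was near the floor of the tables, at 0.559, 0.490 and 0.779 CPM in mutant, against 1.16, 0.748 and 0.678 CPM in wild type batches 1 to 3. It rested on 12 to 21 counts in mutant and 18 to 30 counts in wild type libraries, and its log2 fold change was -0.48 ± 0.32 (SE). Within batches its log2 ratio was -1.05, -0.61 and 0.20, so the direction was not shared by all batches.

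Nlrp6 was lower in every mutant pool. This sensor (Entrez 101613, chromosome 7, 140920902 to 140929192) measured 8.31, 9.03 and 11.9 CPM in mutant batches 1, 2 and 3, against 32.9, 29.2 and 29.5 CPM in wild type batches. The highest mutant pool was still well below the lowest wild type pool. Its log2 fold change was -1.65 ± 0.14 (SE), a 3.13-fold lower level, and 75 of the 9822 genes had a lower value. The log2 ratios within batches 1, 2 and 3 were -1.98, -1.70 and -1.31, and the log2 fold change without batch 1 was -1.53. Nlrp6 rested on 221 to 321 counts in mutant and 703 to 913 counts in wild type libraries.

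The transcription factors downstream of MAVS overlapped between genotypes. Irf3, which is expressed constitutively in most cells (Entrez 54131, chromosome 7, 44997648 to 45002848), measured 2.35, 2.65 and 3.41 CPM in mutant, against 2.32, 2.83 and 3.49 CPM in wild type batches 1 to 3. The pools of a batch were nearly equal, with log2 ratios of 0.02, -0.09 and -0.03 and a log2 fold change of -0.04 ± 0.21 (SE). Irf7, whose gene interferon itself induces (Entrez 54123, chromosome 7, 141263183 to 141266499), measured 4.47, 3.31 and 3.60 CPM in mutant, against 5.99, 3.08 and 4.46 CPM in wild type batches. The wild type pools spread more widely than the mutant pools and enclosed them at both ends. The log2 fold change of Irf7 was -0.25 ± 0.21 (SE), with -0.42, 0.10 and -0.31 as log2 ratios within batches. By GENCODE, 1065 bases of Irf3 overlap Bcl2l12 on the opposite strand, and 45 bases of Irf7 overlap Phrf1. In RefSeq, Phrf1 does not overlap Irf7 and lies 432 bases away. The library kit keeps no strand information, so reads from such shared stretches cannot be assigned.

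Trafd1, the regulator that dampens signalling, was the most abundant of the 9 transcripts in wild type platelets and was lower in the mutant. It measured 19.5, 21.1 and 20.2 CPM in mutant batches 1, 2 and 3, against 75.6, 67.9 and 58.0 CPM in wild type batches. The mutant pools were level while the wild type pools spread, and no pools of different genotype came close. Its log2 fold change was -1.73 ± 0.12 (SE), a 3.31-fold lower level, with log2 ratios of -1.95, -1.68 and -1.52 within batches and -1.65 without batch 1. Of the tested genes, 64 had a lower value. Trafd1 (Entrez 231712, chromosome 5, 121371725 to 121386570) overlaps the antisense transcripts Gm42917 and Gm42918 over 1623 and 111 bases, which has the same limit of strand.

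The interferon-induced effectors Samd9l and Ifit1 were also lower. Samd9l (Entrez 209086, chromosome 6, 3372257 to 3399571) measured 4.92, 5.02 and 5.82 CPM in mutant, against 12.0, 10.2 and 11.9 CPM in wild type batches 1 to 3. Its log2 fold change was -1.11 ± 0.14 (SE) and -1.07 without batch 1. All mutant pools lay below all wild type pools, with log2 ratios of -1.28, -1.02 and -1.04 within batches. Ifit1 (Entrez 15957, chromosome 19, 34640889 to 34650009) measured 4.18, 4.04 and 3.82 CPM in mutant, against 9.35, 8.81 and 5.59 CPM in wild type batches. Its genotypes did not overlap, but wild type batch 3 lay nearer to the mutant pools than the others, and the log2 ratio in that batch was -0.55 compared with -1.16 and -1.12. The log2 fold change of Ifit1 was -0.97 ± 0.18 (SE) and -0.91 without batch 1. Its annotated span overlaps that of Ifit1bl1 in RefSeq, though not in GENCODE, and related Ifit copies share sequence, so its level is uncertain.

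By the edgeR threshold used for all genes, an adjusted p under 0.05, Mavs was called higher and Nlrp6, Trafd1, Samd9l and Ifit1 were called lower, while 4 of the 9 genes were not called. Over all 9822 genes 22.1% were called, 12.9% higher and 9.16% lower. The same 5 genes were those whose libraries did not overlap between genotypes, a pattern seen in 36.3% of all genes, with 20.4% higher and 15.9% lower in the mutant. Because the genes were picked on this contrast, their counts carry no weight of their own. The 5 calls were the same without any single library or batch and with the batch as a block. For the same reason this sameness is a description only. With the block 40.0% of all genes were called, 22.0% higher and 18.0% lower.

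**Figure D2:**
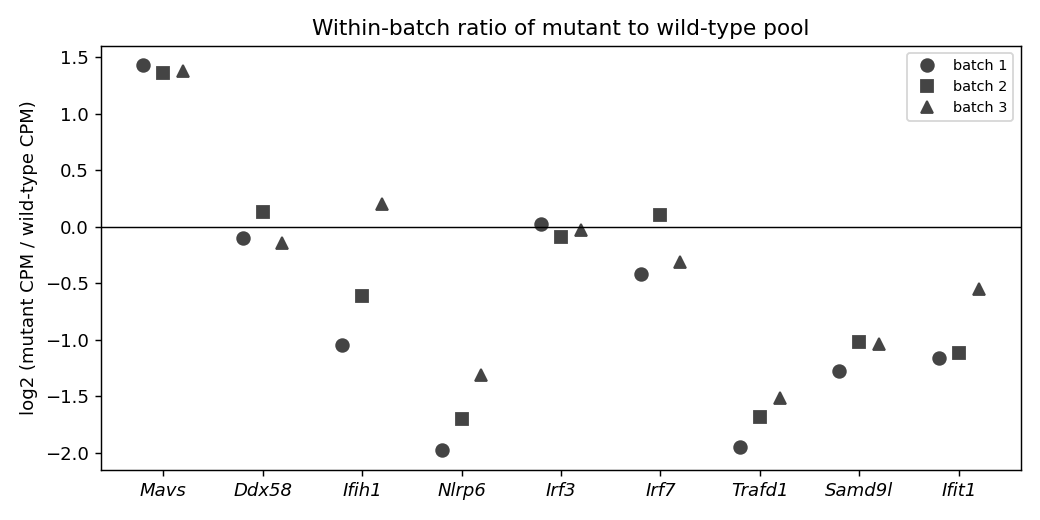
Log2 ratio of mutant to wild type CPM within each batch for the 9 genes, with 1 symbol per batch and a line at no difference. Mavs lies at 1.36 to 1.43 in all batches, Nlrp6, Trafd1, Samd9l and Ifit1 lie below 0 in all batches, and Nlrp6 and Trafd1 have their lowest values in batch 1 and their highest in batch 3.

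Levels of different genes were compared per length, as TPM, which scales counts by the deposited gene lengths. In mutant platelets Mavs came first at 19.7 ± 2.14 TPM, ahead of Trafd1 at 11.7 ± 1.52 and Nlrp6 at 3.69 ± 1.12 TPM (SD, n = 3 each). Below them stood Irf7 at 2.89 ± 0.294, Ifit1 at 2.17 ± 0.146, Irf3 at 1.86 ± 0.564, Ddx58 at 1.44 ± 0.422, Samd9l at 1.42 ± 0.286 and Ifih1 at 0.160 ± 0.0553 TPM. In wild type platelets Trafd1 led at 38.4 ± 1.67 TPM, followed by Nlrp6 at 11.4 ± 1.5 and Mavs at 7.56 ± 1.31 TPM (SD, n = 3 each). Ifit1 at 4.20 ± 0.522, Irf7 at 3.47 ± 1.09, Samd9l at 3.08 ± 0.653, Irf3 at 1.93 ± 0.699, Ddx58 at 1.51 ± 0.601 and Ifih1 at 0.220 ± 0.0450 TPM followed.

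The order of the leading genes was clear in both genotypes, whereas the middle of the list was not. In mutant pools the ranges of Mavs and Trafd1, of Trafd1 and Nlrp6, of Irf7 and Ifit1 and of Samd9l and Ifih1 did not overlap, and those of the other neighbours in the order did. In wild type pools the ranges of Trafd1, Nlrp6, Mavs and Ifit1 were separate, those from Ifit1 through Irf7, Samd9l and Irf3 to Ddx58 overlapped step by step, and Ifih1 stood below all. The TPM of Mavs divided by that of Nlrp6 was 5.53 ± 1.00 in mutant and 0.659 ± 0.0480 in wild type pools (SD, n = 3 each). The TPM of Trafd1 divided by that of Nlrp6 was 3.61, 3.60 and 2.61 in mutant and 3.54, 3.57 and 3.02 in wild type batches, so this ratio overlapped between genotypes. The TPM of Mavs divided by that of its sensor Ddx58 was 14.2 ± 2.87 in mutant and 5.28 ± 1.01 in wild type pools.

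**Figure D3:**
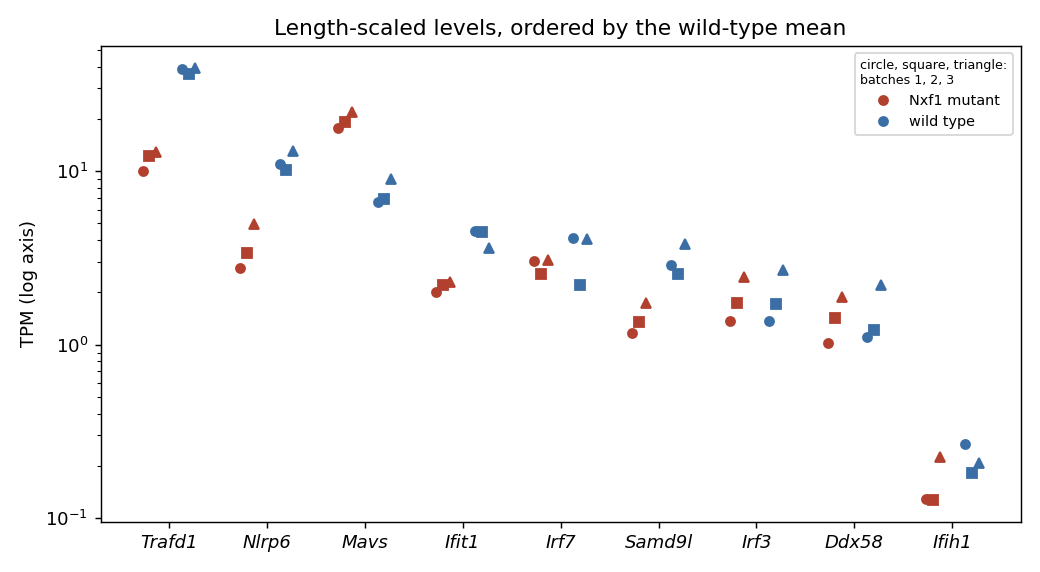
Length-scaled level (TPM, log axis) of the 9 genes in each mutant and wild type pool, ordered by the wild type mean, with circles, squares and triangles for batches 1, 2 and 3. Mavs averages 19.7 TPM in mutant and 7.56 TPM in wild type pools and is the only gene of the 9 with all mutant pools above all wild type pools.

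The genes differed in structure. Samd9l and Ifit1 have at most 2 exons in any GENCODE transcript, and of the 9423 listed genes with an exon number 3.54% had fewer, with a median of 9. Mavs, Nlrp6 and Irf3 have at most 8 exons each, Irf7 has 10, Trafd1 12, Ifih1 16 and Ddx58 18. Mavs, which was higher, and Nlrp6, which was lower, thus share an exon number near the median.

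The other genes of the pathway were read from 8 lists of sensors, adaptors, kinases, transcription factors and effectors, which hold none of the 9 genes. Of 227 genes in these lists 184 had a row, of which 21 rose and 7 fell in mutant platelets and 156 did not pass (edgeR quasi-likelihood test, adjusted p under 0.05). That is 15.2% called, against 22.1% over all genes, and the lists were not matched to all genes for expression level. The median log2 fold change was -0.02, beside -0.04 over all genes. With the batch as a block 35 rose and 23 fell, where 22.0% of all genes were called higher and 18.0% lower. The split between directions was 17 higher and 11 lower without the 10 most abundant genes, and 15 higher and 14 lower among genes averaging at least 10 CPM. Over all genes the filter at 10 CPM gave 725 higher and 756 lower calls. The higher count was 12 without mutant replicate 1, 13 without mutant replicate 2, 12 without batch 1 and 6 without batch 2, and the lower count was 11 without mutant replicate 3, 4 without batch 1 and 2 without batch 2.

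By edgeR, by DESeq2 and by limma-voom, 4 of 18 genes that act on RIG-I and MDA5 rose and 0 fell. Each tool had 2 lower at an unadjusted p under 0.05. By edgeR that is 22.2% called, near the 22.1% over all genes. With the block 4 rose and 4 fell, where 40.0% of all genes were called. The median log2 fold change of the list was 0.05. The ubiquitin ligase gene Mex3c, whose product modifies RIG-I, measured 19.0, 16.2 and 14.9 CPM in mutant, against 9.16, 6.94 and 6.23 CPM in wild type batches. It rose by 1.17 ± 0.15 on the log2 scale (SE, adjusted p = 1.54e-05 by edgeR). Ppp1ca, a phosphatase that acts on both helicases, rose by 0.65 on the log2 scale (adjusted p = 0.000197 by edgeR), and Cyld, a deubiquitinase of RIG-I, rose by 0.55 (adjusted p = 0.00191 by edgeR). The abundant 14-3-3 gene Ywhah, a cofactor of MDA5, rose by 0.36 (adjusted p = 0.0418 by edgeR). Of these calls, that of Ywhah was lost in 7 of 9 fits that each left out 1 library or batch, all but those without mutant replicate 3 or batch 3 (adjusted p up to 0.402 by edgeR), and that of Cyld without batch 2 (adjusted p = 0.0718 by edgeR).

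Partners and kinases of MAVS included 6 that rose and 1 that fell of 34, which is 20.6% called, near the 22.1% over all genes. With the block 10 rose and 2 fell, where 40.0% of all genes were called. The median log2 fold change of the list was 0.05. Nlrx1, a mitochondrial NOD-like protein reported to restrain MAVS, measured 311, 287 and 323 CPM in mutant, against 217, 208 and 216 CPM in wild type batches. It rose by 0.52 ± 0.11 on the log2 scale (SE, adjusted p = 0.00124 by edgeR). The mitochondrial fusion gene Mfn2 rose by 0.57 on the log2 scale (adjusted p = 0.00198 by edgeR). The ubiquitin ligase genes Smurf1 and Smurf2, whose products promote MAVS degradation, had 0.68 and 0.55 (adjusted p = 0.00251 and 0.00407 by edgeR). Tax1bp1, an autophagy adaptor and among the most abundant of this list, had 0.15 (adjusted p = 0.383 by edgeR). Pcbp2, which brings a ubiquitin ligase to MAVS, was the gene that fell, by 0.37 on the log2 scale, and is named after its value was seen (adjusted p = 0.0211 by edgeR). That call was lost without mutant replicate 1 or 3, wild type replicate 2, batch 1 or batch 2 (adjusted p up to 0.206 by edgeR). Calls were lost for Nlrx1 and Mfn2 without batch 1 or batch 2, for Smurf1 without batch 2, and for Smurf2 without mutant replicate 1 or batch 2, with adjusted p up to 0.0816, 0.0957, 0.0745 and 0.0604 by edgeR.

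**Figure D4:**
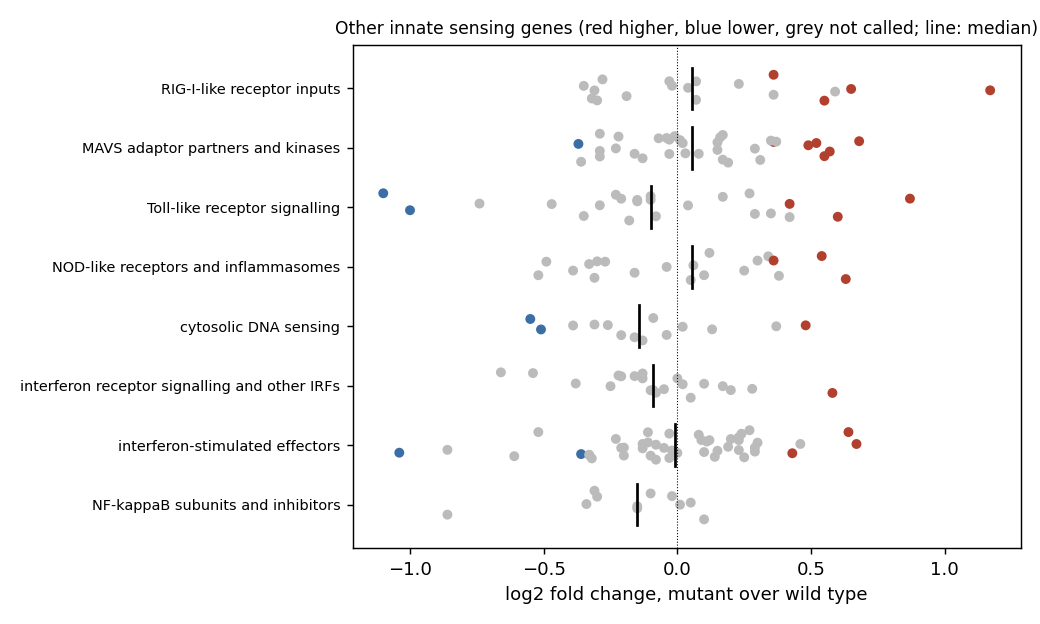
Log2 fold change of mutant over wild type for the listed genes of 8 innate sensing lists, 1 point per gene, red where called higher, blue where called lower and grey where not called, with a line at each list's median. List medians lie between -0.15 and 0.06, with Mex3c at 1.17 as the highest gene and Tlr12 at -1.10 as the lowest.

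Of 23 genes of Toll-like receptor signalling with a row 3 rose and 2 fell (21.7% called, beside 22.1% over all genes). With the block 5 rose and 2 fell, where 40.0% of all genes were called. The only receptor genes of the Tlr family among them were Tlr1, Tlr12 and Tlr13. Irak3, a kinase-dead inhibitor of the pathway, measured 19.6, 18.3 and 17.1 CPM in mutant, against 38.5, 38.7 and 32.8 CPM in wild type batches and fell by 1.00 ± 0.12 on the log2 scale (SE, adjusted p = 5.11e-06 by edgeR). Tlr12, a receptor for protozoan profilin in mice, fell by 1.10 on the log2 scale (adjusted p = 0.000266 by edgeR). Tollip, another inhibitor, measured 565, 562 and 541 CPM in mutant, against 324, 324 and 265 CPM in wild type batches and rose by 0.87 ± 0.12 (SE, adjusted p = 2.11e-05 by edgeR). The adaptor gene Myd88 had 0.60 (adjusted p = 0.0108 by edgeR), a call lost without mutant replicate 2, wild type replicate 1 or batch 2 (adjusted p up to 0.234 by edgeR). The list median was -0.10 on the log2 scale.

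Among 20 NOD-like receptor and inflammasome genes with a row 3 rose and 0 fell by edgeR, by DESeq2 and by limma-voom, with 1 lower at an unadjusted p under 0.05 by edgeR and 0 by the other tools. By edgeR that is 15.0% called, beside 22.1% over all genes. With the block 5 rose and 1 fell, where 40.0% of all genes were called. The median log2 fold change was 0.06. Dpp8, a peptidase that restrains NLRP1, rose by 0.54 on the log2 scale (adjusted p = 0.00121 by edgeR), Casp1, the inflammasome caspase, 0.63 (adjusted p = 0.0181 by edgeR), and Ninj1, which ruptures membranes of dying cells, 0.36 (adjusted p = 0.0367 by edgeR). Casp1 rested on means of 3.43 CPM in mutant, against 2.22 CPM in wild type pools. The channel gene Panx1 had 0.25 (adjusted p = 0.131 by edgeR, and 0.00137 with the block). Of 9 fits with 1 library or batch left out, calls were lost in 7 for Casp1 (up to 0.132, all but those without wild type replicate 3 or batch 3), in 6 for Ninj1 (up to 0.331, all but those without replicate 3 of either genotype or batch 3) and in 1 for Dpp8 (0.0795, without batch 2), as adjusted p by edgeR.

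Of 14 genes of cytosolic DNA sensing with a row 1 rose and 2 fell (21.4% called, beside 22.1% over all genes). The DNase gene Trex1 fell by 0.55 on the log2 scale (adjusted p = 0.00393 by edgeR), the ubiquitin ligase gene Trim56 had -0.51 (adjusted p = 0.00623 by edgeR), and Stim1, better known in platelets as the calcium store sensor, had 0.48 (adjusted p = 0.00409 by edgeR). The median was -0.15. Calls were lost for Trex1 without batch 2, for Trim56 without batch 1 or batch 2, and for Stim1 without mutant replicate 1, wild type replicate 2, batch 1 or batch 2 (adjusted p up to 0.0705, 0.119 and 0.160 by edgeR). Of 21 genes of interferon receptor signalling and other interferon regulatory factors 1 rose and 0 fell by edgeR, by DESeq2 and by limma-voom. Each tool had 2 lower at an unadjusted p under 0.05. By edgeR that list had 4.76% called, beside 22.1% over all genes. The gene that rose was the receptor kinase gene Jak2, with means of 194 ± 12.2 CPM in mutant, against 130 ± 16.9 CPM in wild type pools (SD, n = 3 each) and a fitted difference of 0.58 on the log2 scale (adjusted p = 0.00131 by edgeR). Its relative Jak1 had -0.16 (adjusted p = 0.329 by edgeR, and 0.0444 with the block). In this list 3 genes rose and 3 fell with the block, where 40.0% of all genes were called. None of 11 NF-kappaB subunits and inhibitors passed the edgeR test, and 2 fell with the block, where 18.0% of all genes were called lower. The abundant Nfkb1 and Rela had log2 fold changes of -0.30 and -0.10 (adjusted p = 0.199 and 0.717 by edgeR, and 0.00184 and 0.501 with the block). At an unadjusted p under 0.05 that list had 1 gene by edgeR, 1 by limma-voom and 0 by DESeq2, and at the adjusted threshold the other tools also called 0.

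Interferon-stimulated effectors did not follow Samd9l and Ifit1 as a group: of 46 with a row 3 rose, 2 fell and 41 did not pass. That is 10.9% called, beside 22.1% over all genes. With the block 7 rose and 7 fell, where 40.0% of all genes were called. The median log2 fold change was -0.01, beside -0.04 over all genes. Lgals3bp, a secreted lectin-binding protein gene, rose by 0.67 on the log2 scale (adjusted p = 0.000174 by edgeR), the galectin gene Lgals9 by 0.64 (adjusted p = 0.000451 by edgeR) and the exonuclease gene Isg20 by 0.43 (adjusted p = 0.0233 by edgeR). The membrane antiviral gene Ifitm3 had 0.29 (adjusted p = 0.0768 by edgeR, and 0.000117 with the block). Isg15 and Mx2 are named after their values were seen. They had -0.86 and -0.61 (adjusted p = 0.0681 and 0.07 by edgeR, and 1.38e-06 and 0.00613 with the block). The Isg20 call was lost without mutant replicate 1, mutant replicate 2, wild type replicate 2, batch 1 or batch 2 (adjusted p up to 0.279 by edgeR).

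The Ifit relatives of Ifit1 are neighbours on chromosome 19 and did not all share its difference. Ifit3b measured 0.858, 0.572 and 0.853 CPM in mutant, against 1.31, 1.70 and 1.71 CPM in wild type batches, with a log2 fold change of -1.04 ± 0.26 (SE, adjusted p = 0.00663 by edgeR, and 0.128 without batch 2). Ifit1bl1, which overlaps Ifit1 in RefSeq, had 0.12 ± 0.19 (SE, adjusted p = 0.709 by edgeR). Ifit2, Ifit3 and Ifit1bl2 are named after their values were seen. Ifit2, far the most abundant of the family, measured 277, 283 and 272 CPM in mutant, against 367, 392 and 307 CPM in wild type batches and fell by 0.36 on the log2 scale (adjusted p = 0.0306 by edgeR), a call lost in 7 of 9 fits with a library or batch left out, all but those without wild type replicate 3 or batch 3 (adjusted p up to 0.290 by edgeR). Ifit3 and Ifit1bl2 had log2 fold changes of -0.11 and 0.23 (adjusted p = 0.586 and 0.432 by edgeR). The sources used here do not say how the authors counted reads shared among these copies.

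The nearest listed gene on either side within 50 kb was examined for each gene, 15 neighbours in all, with none for Ifih1. Around Mavs, Ap5s1 and Pank2 had log2 fold changes of 0.40 ± 0.17 and 0.36 ± 0.18 (SE, adjusted p = 0.0980 and 0.168 by edgeR, and 0.00421 and 0.0231 with the block), compared with 1.39 in Mavs. Around Nlrp6, the proteasome gene Psmd13 had 0.39 (adjusted p = 0.0182 by edgeR) and Pgghg had -0.05 (adjusted p = 0.877 by edgeR), compared with -1.65 in Nlrp6. Trafd1 lies 3148 bases from Hectd4, a ubiquitin ligase gene on the opposite strand whose end faces its own. Hectd4 measured 25.1, 23.5 and 22.7 CPM in mutant, against 11.7, 12.5 and 10.7 CPM in wild type batches, a rise of 1.04 ± 0.12 on the log2 scale (SE, adjusted p = 3.95e-06 by edgeR), so adjacent genes that end toward each other differed in opposite directions. On the other side of Trafd1, Naa25 had -0.46 ± 0.34 (SE, adjusted p = 0.384 by edgeR).

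Beside Irf3, the splicing-related gene Scaf1, which ends 98 bases away on the opposite strand, rose by 0.57 ± 0.12 (SE, adjusted p = 0.00192 by edgeR) and Prmt1 had -0.33 (adjusted p = 0.250 by edgeR). Beside Ifit1, Slc16a12 rose by 0.58 (adjusted p = 0.00410 by edgeR). The neighbours Gm20559 of Samd9l, Aco1 and Topors of Ddx58, and Phrf1 and Deaf1 of Irf7 had log2 fold changes between -0.20 and 0.44 and did not pass (adjusted p of 0.107 to 0.964 by edgeR). With the block Gm20559 and Aco1 passed (adjusted p = 0.0177 and 0.0412 by edgeR). Calls were lost for Psmd13 in 6 of the 9 fits with a library or batch left out (adjusted p up to 0.207 by edgeR, all but those without replicate 3 of either genotype or batch 3), for Scaf1 without batch 1 (0.0560) and for Slc16a12 without mutant replicate 1 or batch 1 (up to 0.0729).

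**Figure D5:**
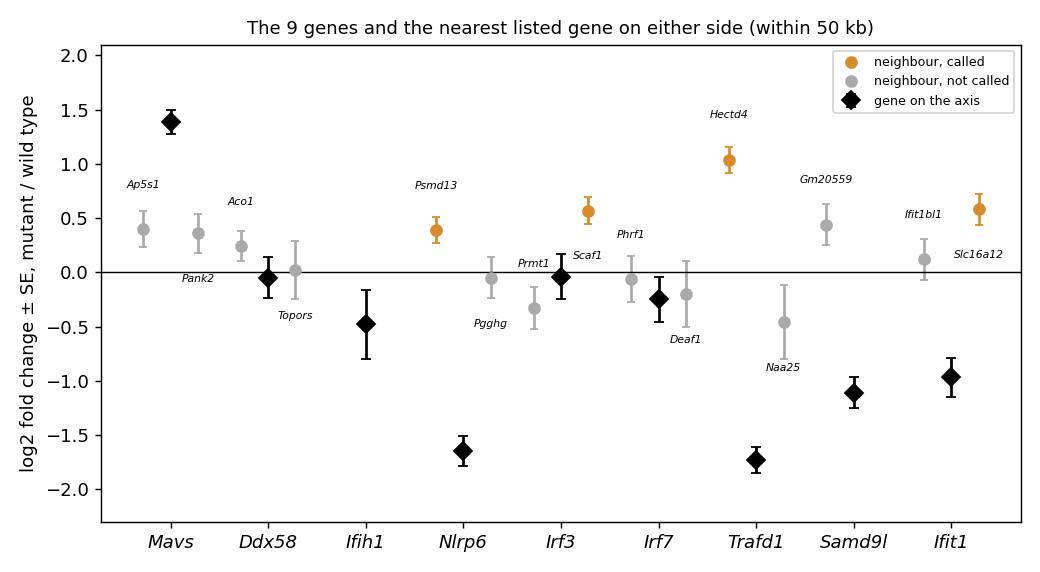
Log2 fold change with SE for each of the 9 genes (diamonds) and the nearest listed gene at lower (left) and higher (right) coordinates within 50 kb (circles, orange where called by edgeR). Hectd4 at 1.04 stands beside Trafd1 at -1.73, and the neighbours of Mavs and Nlrp6 lie between -0.05 and 0.40.

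The genes whose levels across the 6 libraries were most like those of Mavs, by the root mean square distance of centred log2 CPM, were Ache (0.0790), Ufsp1 (0.0936) and the serotonin transporter gene Slc6a4 (0.0963). Their log2 fold changes were 1.35, 1.51 and 1.25. Those most like Nlrp6 were Atxn7l3b (0.112), Vsig2 (0.156) and Dcstamp (0.160), with log2 fold changes of -1.55, -1.49 and -1.59. All 6 averaged at least 10 CPM, and the measure includes the difference between genotypes.

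Several of the 9 genes are also expressed in leukocytes, and in bulk RNA fewer cells of a type and less RNA per cell cannot be told apart. B cell markers (15 of 15 listed) summed to 247, 254 and 318 CPM in mutant batches 1 to 3, against 299, 295 and 403 CPM in wild type batches, lower in the mutant within every batch. By edgeR 2 of them fell, which is 13.3% called, beside 22.1% over all genes. With the batch as a block 10 fell and 1 rose, where 40.0% of all genes were called, 22.0% higher and 18.0% lower. Dendritic cell markers (7 of 10 listed) summed to 61.5 to 69.0 CPM in mutant, against 99.2 to 112 CPM in wild type libraries, without overlap, and 2 of them fell with and without the block. Another 5 did not pass by edgeR, so 28.6% were called. Log2 fold changes in this list ran from -1.14 to 0.11 with a median of -0.17. T and NK cell markers (13 of 15 listed) summed to 203 to 253 CPM in mutant, against 156 to 205 CPM in wild type libraries. Of these, 1 rose and 0 fell by edgeR (7.69% called) and by DESeq2, 1 rose and 1 fell by limma-voom, and 2 rose and 3 fell by edgeR with the block. At an unadjusted p under 0.05, 3 were lower by edgeR, 1 by DESeq2 and 3 by limma-voom. The T and NK list had a median log2 fold change of -0.12 (range -0.71 to 0.47), so its sums do not stand for most of its genes. Neutrophil markers (5 of 13 listed) summed to 14.8 to 22.5 CPM in mutant, against 14.7 to 19.7 CPM in wild type libraries, and 0 passed by edgeR, DESeq2 or limma-voom, with 1 at an unadjusted p under 0.05 by each. With the block 1 neutrophil marker rose and 1 fell. The granule genes Mpo, Elane, Camp, Ltf and Ngp were among the neutrophil markers without a row. Monocyte and macrophage markers (9 of 12 listed), which include the platelet-expressed F13a1, summed to 4137 to 4466 CPM in mutant, against 2474 to 3177 CPM in wild type libraries. Of these, 2 were higher and 2 lower with and without the block (44.4% called by edgeR). Log2 fold changes in this list ran from -0.76 to 0.69 with a median of 0.14, so its sums do not stand for all of its genes. The part of such cells in the values of Nlrp6, Trafd1, Samd9l and Ifit1 was not tested.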

How the data were processed

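PolyA RNA of 6 platelet pools was measured. The authors deposited whole-number counts per Entrez gene with a gene length in bases, per the file headers. The build mm10 and the tools CASAVA 1.8.2, Subread and featureCounts are named per the submitters' processing notes. For their roles, their settings and reads with several positions, nothing further was stated. The tables hold 9822 genes, of which 9636 were named from RefSeq (GRCm38.p6), and 25189231 to 29421549 counts per library. Counting error of a gene falls with its count, and p-values measure the spread between pools, which may be partly technical.

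Counts were tested across all genes with edgeR 4.0.16 in R 4.3.3 (TMM scaling, filterByExpr, which removed 0 genes, a robust quasi-likelihood model of genotype alone, two-sided, Benjamini-Hochberg adjustment, threshold 0.05). SEs were derived from the fold change and the F statistic. TPM were computed from counts and deposited lengths over the listed genes. The fit was tested on simulated data. Deviations from the group means correlated at 0.520, 0.350 and 0.547 within batches and at most at -0.0358 between batches, so batch numbers, which the labels give, pair the libraries. Libraries of a group differed beyond sampling noise (mean chi-square per gene of at least 14.5). The members and lists were chosen with earlier results of these data known. Named genes are the 9 genes, up to 4 called genes of smallest p and the 2 most abundant of each list, the nearest listed neighbours within 50 kb, and the 3 genes most like Mavs and Nlrp6 among those averaging at least 10 CPM. Exceptions are marked in the text. Other scalings and filters were tried as alternatives, as were DESeq2 1.42.0, limma-voom (limma 3.58.1), the batch as a block and leaving out each library or batch. GENCODE M21 gave exon numbers, strands and overlaps, except that of Ifit1 with Ifit1bl1, which is from RefSeq.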

Additional observations from a re-analysis of the deposited data

How the results depend on the processing

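The direction of Mavs, Nlrp6, Trafd1, Samd9l and Ifit1 was the same in all alternatives run. Their log2 fold changes ranged from 1.22 to 1.41, -1.83 to -1.53, -1.89 to -1.65, -1.23 to -1.07 and -1.18 to -0.88, and the lowest value of Mavs came with genes averaging at least 10 CPM. Ranges were -0.20 to 0.16 for Ddx58, -0.85 to -0.19 for Ifih1, -0.21 to 0.13 for Irf3 and -0.50 to -0.04 for Irf7. Genes with under 10 CPM have no value under that filter.

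Over all genes 1266 were called higher and 900 lower. With the replicate block of edgeR, the paired fit, 2164 were higher and 1765 lower, and among pathway genes 35 and 23. The block changed no call of the 9 genes. Genes averaging at least 10 CPM gave 725 higher calls over all genes and 14 lower calls among pathway genes. Pathway genes called lower numbered 11 without the 10 most abundant genes and 12 by DESeq2 with the replicate block. Leaving out 1 library or a batch gave 485 to 1387 higher and 520 to 1002 lower calls over all genes, and 6 to 25 higher and 2 to 11 lower calls among pathway genes. The lowest count of each came without batch 2. Without batch 1, 5.98% of all genes were called higher, and 12 pathway genes were higher and 4 lower. Without mutant replicate 1 and 2 there were 706 and 654 higher calls over all genes. The cause was not tested.

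Of 33 other named genes that were called, 15 were called in all 9 fits that left out a library or batch and 18 lost the call in at least 1. The called genes kept their direction in every alternative. Outside the leave-out fits, calls were lost for Ywhah with RLE factors (0.0756), without the 10 most abundant genes (0.0958) and at 10 CPM (0.0585), for Ninj1 with RLE factors (0.0689) and without those genes (0.0881), for Smurf1 (0.0542), Myd88 (0.130) and Casp1 (0.116) with library size alone, and for Casp1 by DESeq2 with the block (0.0558), as adjusted p. Log2 fold changes of genes that were not called changed sign for Tax1bp1 with genes averaging 10 CPM (-0.02), and for Topors with upper-quartile factors (-0.02), library size alone (-0.07) or without the 10 most abundant genes (-0.02). Over the fits that left out a library or batch, those of Topors ranged from -0.16 to 0.20, of Rela from -0.30 to 0.11, of Phrf1 from -0.23 to 0.23, of Deaf1 from -0.48 to 0.02, of Pgghg from -0.12 to 0.00 and of Ifit1bl1 from -0.09 to 0.25. Counting error alone was 21.8% to 28.9% of the Ifih1 count in mutant and 18.3% to 23.6% in wild type libraries.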
